A study of Mus musculus with 2 samples.

Results

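Immature and mature B cells of mouse bone marrow were chosen by their own UMI counts, as the cells with at least 3 Cd79a UMIs and fewer than 3 Siglech UMIs in which the summed UMIs of Ms4a1, Fcmr, H2-Eb1 and H2-DMb2 were equal to or above those of Igll1, Vpreb1, Myl4 and Ebf1. A UMI (unique molecular identifier) marks 1 captured mRNA molecule. The rule found 102 of the 2478 cells of the series. The data came from sc-RNA-seq of live-sorted marrow cells, rinsed out of femurs and tibiae of mice aged 2 months. Fsp1-Cre;Col1a1flox/flox mice (Col1a1fspKO) lose Col1a1, the gene of the type I collagen α1 chain, in cells that have used the promoter of Fsp1, also named S100a4. Cre-negative;Col1a1flox/flox littermates served as WT, so both groups carried the floxed alleles and neither was treated. Each genotype had 1 library from 2 pooled mice, so differences between mice, libraries and genotypes cannot be told apart, and no test between genotypes was made.

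B cells are made in the bone marrow. Pro-B and pre-B cells rearrange the immunoglobulin genes and carry a surrogate light chain built from Igll1 and Vpreb1. An immature B cell has a complete B cell receptor on its surface, signals through Cd79a and Cd79b, and then leaves the marrow or matures further. Mature B cells recirculate, present antigen on MHC class II and survive on BAFF received through Tnfrsf13c.

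The class held 53 of 1309 cells in Col1a1fspKO (4.05%, 95% Clopper-Pearson interval 3.05 to 5.26) and 49 of 1169 cells in WT (4.19%, 3.12 to 5.50). The difference of Col1a1fspKO minus WT was -0.143 percentage points, with a 95% Newcombe interval of -1.75 to 1.43. Of the B lineage cells that passed the Cd79a and Siglech limits, the class took 22.1% of 240 in Col1a1fspKO (17.0 to 27.9) and 22.6% of 217 in WT (17.2 to 28.7). All intervals cover counting error only. The Col1a1fspKO table began at cells of 2540 UMIs, whereas the shallowest WT cell had 2909. With this latter depth as the minimum for both tables, the share was 2.86% in Col1a1fspKO and 4.19% in WT, a difference of -1.33 points (-2.87 to 0.181). The share in Col1a1fspKO thus depended on cells shallower than any in the WT table.

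Together the Col1a1fspKO members held 219897 UMIs and those of WT 255505. The median Col1a1fspKO member had 3068 UMIs (2559 to 22703) and the median WT member 3688 (2919 to 20893). The remaining Cd79a-selected cells, called pro-B and pre-B cells here, numbered 187 and 168 and were deeper, with medians of 5085 and 6599.5 UMIs. The limit between both classes passed through few cells. In Col1a1fspKO, 2 members had equal sums, and 3 cells lay 1 UMI outside. In WT, 2 members had equal sums and 1 cell lay 1 UMI outside. The mature sum was 3, 14 and 46 UMIs (lowest, median, highest) in Col1a1fspKO, and 3, 13 and 71 in the WT members. The early sum was 0, 4 and 18 UMIs in Col1a1fspKO members, and 1, 4 and 15 UMIs in WT members. Without Ebf1 its median was 0 in both libraries, and its highest value 4 in Col1a1fspKO and 6 in WT. Cd79a sat at its limit of 3 UMIs in 4 members of each library, and 1 Col1a1fspKO cell and 2 WT cells met the sums with 2 Cd79a UMIs. The libraries shared 2 cell barcodes, and 0 of those cells were members.

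**Figure D1:**
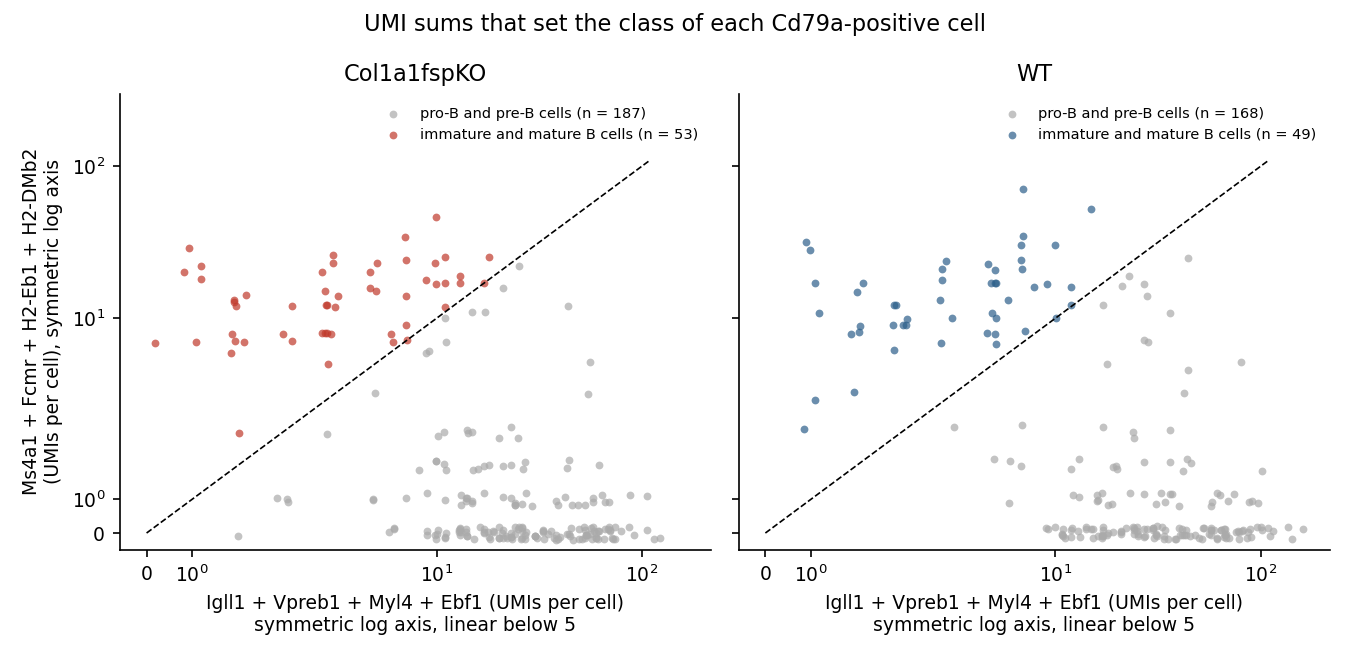
UMI sums of the 4 mature genes (vertical axis) against the 4 early genes (horizontal axis) in each Cd79a-selected cell, on symmetric log axes with a small jitter. Coloured points on or above the dashed line of equal sums are the immature and mature B cells, 53 in Col1a1fspKO and 49 in WT, and grey points are the 187 and 168 pro-B and pre-B cells.

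7 of the 102 cells held much neutrophil or erythroid RNA. A limit of 3% of a cell's UMIs, set after the data had been seen, was put on a list of 10 neutrophil genes and on a list of 8 erythroid genes. It was passed by 2 Col1a1fspKO cells and 5 WT cells. In Col1a1fspKO, 1 cell gave 26.6% of its UMIs to the neutrophil list, and the deepest member, with 22703 UMIs, gave 23.1% to the erythroid list. In WT, the 5 cells gave 5.19 to 28.4% to the neutrophil list. In the other cells the neutrophil list took 0.0326 to 0.735% (Col1a1fspKO) and 0.127 to 0.622% (WT), and the erythroid list took 0.689 to 1.57% and 0.547 to 2.28%. No limit was put on a list of 8 monocyte genes, which took up to 0.151% and 1.07% in these cells. The WT cell with 1.07% had 0 Ms4a1 UMIs and 1 Fcmr UMI and was kept. S100a8, a neutrophil alarmin, had a median of 6 UMIs per member in both libraries and Hba-a1, an α-globin gene, a median of 5, so low levels of these transcripts were present in nearly every cell. Scrublet, a doublet caller, marked 6 cells in Col1a1fspKO and 5 in WT, and 0 of the 102 members, the 7 cells included. Doublets were kept. The listed T and NK cell genes had 15 UMIs over the Col1a1fspKO members and 5 over those of WT. Of the 15, 12 lay in 1 cell with 6708 UMIs, 4 of them from Cd3e, a chain of the T cell receptor complex, and this cell was kept.

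**Figure D2:**
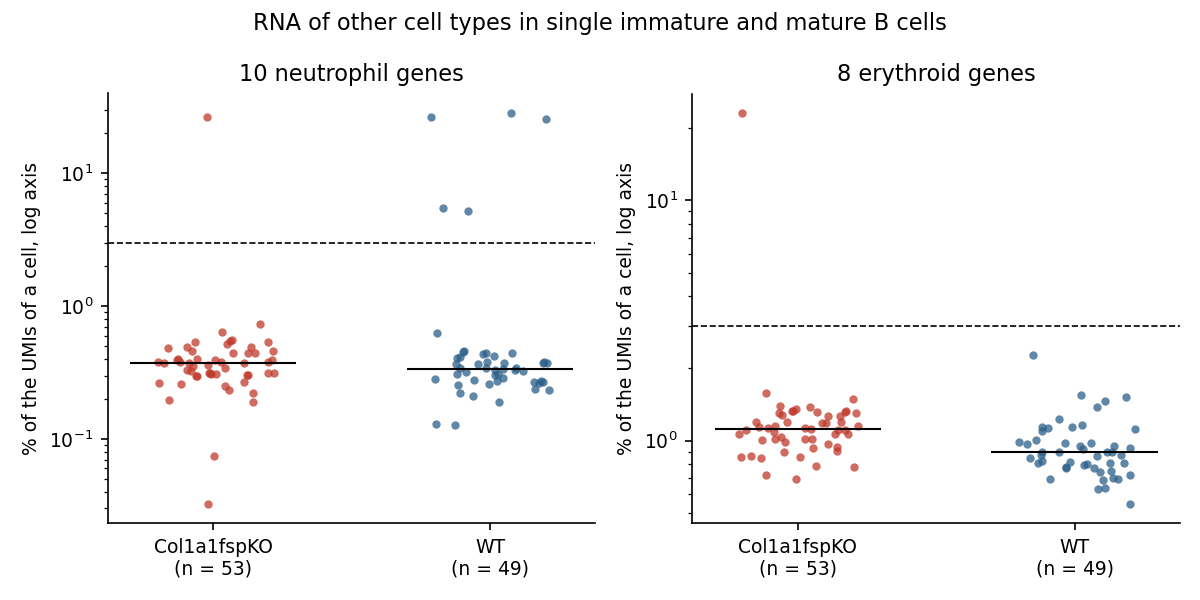
Share of each immature or mature B cell's UMIs that came from 10 neutrophil genes (left) and 8 erythroid genes (right), on log axes. Each point is a cell, solid lines are medians and the dashed line is the 3% limit, above which lie 1 Col1a1fspKO and 5 WT cells on the left and 1 Col1a1fspKO cell on the right.

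Of the marker genes, Ms4a1 and Fcmr were in the rule, while Cd74 and Tnfrsf13c were not. Levels are given as counts per 1000000 UMIs of the class (CPM), with exact Poisson 95% intervals. Ms4a1, which encodes CD20, stood at 1546 CPM (1386 to 1720) in Col1a1fspKO and 1507 (1360 to 1665) in WT, against 62.4 and 57.6 in pro-B and pre-B cells. Fcmr, the IgM Fc receptor, stood at 646 CPM (544 to 761) and 614 (522 to 718), against 19.9 and 15.7. These values only describe the choice. Cd74, the invariant chain of MHC class II, stood at 8163 CPM (7790 to 8549) in Col1a1fspKO and 6955 (6635 to 7286) in WT, against 381 and 317. Tnfrsf13c, the BAFF receptor, stood at 659 CPM (556 to 776) and 861 (751 to 983), against 80.9 and 67.5. Cd74 was found in every member, with 10, 30 and 84 UMIs per cell (lowest, median, highest) in Col1a1fspKO and 5, 32 and 149 in WT. The markers were not in every cell. Ms4a1 had at least 1 UMI in 96.2% of the members in Col1a1fspKO and 95.9% in WT. It had one in 1.37% of 511 and 1.41% of 425 neutrophils, which should lack it and had median depths of 3960 and 4641 UMIs. Neutrophils here are cells with no Cd79a UMI and at least 50 UMIs of Ngp and Retnlg together. Leaving out cells with Cd79a favours low shares of B cell genes among them. Among the 7 cells above, 1 Col1a1fspKO and 1 WT cell had 0 UMIs of both Ms4a1 and Fcmr.

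The immunoglobulin constant genes could not be used to stage the cells. 0 of the 12 heavy and light chain constant genes looked for, IgM and IgD among them, had a row in either table. Surface IgM and IgD are what define the immature and the mature stage, so the cells were described by other genes.

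Members were compared with pro-B and pre-B cells within each library. Because the rule separated both classes from the same cells, the ratios describe the classes and were not tested. Of 3647 genes with at least 50 UMIs over both classes in each library, 104 (2.85%) were at least 2-fold higher in members in both libraries and 340 (9.32%) at least 2-fold lower. The median log2 ratio over all these genes was -0.35 in Col1a1fspKO and -0.23 in WT.

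The MHC class II genes were the list most fully on the high side. All 7 members of the list that reached the count minimum were at least 2-fold higher in both libraries, against the 2.85% of all genes, though H2-Eb1 and H2-DMb2 among them were in the rule. H2-Aa, the α chain of I-A, stood at 1232 CPM (1090 to 1388) in Col1a1fspKO members and 84.3 in pro-B and pre-B cells, a ratio of 14.6, and at 1033 CPM (912 to 1166) and 115 in WT, a ratio of 8.96. H2-Ab1, the I-A β chain, stood at 1114 CPM against 215 in Col1a1fspKO and at 928 against 272 in WT. H2-DMa, a chain of the peptide exchange factor, stood at 282 CPM against 24.7 and at 207 against 33.4. H2-Ob, a chain of its inhibitor, stood at 168 CPM against 24 and at 106 against 32.7. Ciita, the coactivator of this gene group, had 5 UMIs in the members of each library, too few to compare.

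These genes lie within 1 segment of chromosome 17, apart from Cd74 and Ciita. H2-Aa spans chr17:34282744-34287823 on the minus strand, H2-Ab1 chr17:34257689-34269419 and H2-Eb1 chr17:34305867-34316674 on the plus strand of GRCm38. The promoters are shown because the genes share a compact control region just before their start. RefSeq promoter sequences (GRCm38.p6, 250 bases before to 50 after the start) were held for 7 of the 10 genes of the list. The letters GATTGG, the core of the Y box on the strand searched, were looked for on both strands. They occurred in at least 1 promoter of each of those 7 genes and in 5292 of 32851 promoters (16.1%). In 4 of them, given 5′ to 3′ on the strand of the gene with the match in capitals, the surrounding 106 bases read as follows.
H2-Aa, chr17:34287842-34287947, minus strand: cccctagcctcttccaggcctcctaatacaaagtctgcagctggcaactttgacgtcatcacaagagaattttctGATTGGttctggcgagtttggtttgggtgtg
H2-Eb1, chr17:34305732-34305837, plus strand: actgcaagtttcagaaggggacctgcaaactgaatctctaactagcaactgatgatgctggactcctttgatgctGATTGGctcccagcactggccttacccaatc
H2-DMb2, chr17:34145083-34145188, plus strand: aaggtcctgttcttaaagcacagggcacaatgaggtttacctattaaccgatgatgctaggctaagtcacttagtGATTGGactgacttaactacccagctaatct
H2-Ob, chr17:34238772-34238877, plus strand: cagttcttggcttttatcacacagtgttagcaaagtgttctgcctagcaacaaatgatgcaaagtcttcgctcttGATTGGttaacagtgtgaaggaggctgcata
The match began 49 bases before the start of H2-Aa, 60 before that of H2-Eb1, 91 before that of H2-DMb2 and 58 before that of H2-Ob. The H2-DMb2 promoter entry lies inside the span that GENCODE gives the gene, chr17:34143307-34151555. The capitals mark the match on the strand of the gene, and the H2-Eb1 stretch also ends in the match on the other strand, in lower case. A match of letters is a description of the sequence and does not show binding in these cells.

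Of 6 survival genes with enough UMIs, 4 were at least 2-fold higher in both libraries and 1 was lower. The higher genes were Bcl2, Mcl1, Tnfrsf13c and Fcmr, the last being in the rule. Over all genes the shares were 2.85% higher and 9.32% lower. Bcl2, which blocks apoptosis, stood at 164 CPM (115 to 227) in Col1a1fspKO members and 176 (128 to 236) in WT members, against 10.3 and 5.24 in pro-B and pre-B cells. Mcl1, of the same family, stood at 282 and 219 CPM against 68.5 and 57.0. Bcl2l1, which encodes Bcl-xL, went the other way, with 22.7 and 11.7 CPM against 69.9 and 63.5. Both libraries showed Bcl2 and Mcl1 on the high side and Bcl2l1 on the low side.

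Among the defining B cell genes 7 of 11 were at least 2-fold higher and 0 lower, against 2.85% and 9.32% of all genes. Besides the 4 markers, of which Ms4a1 and Fcmr were in the rule, these were Cd37, Cd79b and Ly6d. Cd79b, the partner of Cd79a, stood at 2096 CPM (1909 to 2297) in Col1a1fspKO and 1706 (1550 to 1874) in WT, against 829 and 778. Pax5, the factor that holds B cell identity, did not pass 2-fold and stood at 141 and 180 CPM against 94.6 and 115. Of 14 genes of B cell receptor signalling, 3 were higher (Cd79b, Bank1 and Ptpn6) and 0 lower. Bank1, an adaptor of the receptor, stood at 209 CPM (153 to 279) and 160 (115 to 218) against 5.48 and 9.82. Blnk, the linker needed already by the pre-B cell receptor, stood at 232 and 200 CPM against 264 and 233. Of 4 inhibitory receptors, Fcrl1 and Siglecg were higher. Siglecg, a lectin that restrains the receptor, stood at 719 and 626 CPM against 249 and 259.

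Among transcription factors 4 of 17 were higher (Irf8, Klf2, Pou2f2 and Rel) and 1 was lower (Bach2). Over all genes the shares were 2.85% higher and 9.32% lower, and the 1 lower factor is near the latter. Klf2, a factor of quiescence and migration, stood at 809 CPM (695 to 938) in Col1a1fspKO and 998 (879 to 1128) in WT, against 210 and 214. Rel, the NF-κB subunit c-Rel, stood at 132 and 74.4 CPM against 17.1 and 23.6. Of 7 immediate early genes with enough UMIs, Btg1, Junb and Jund were higher and 0 lower. Ltb, which encodes lymphotoxin β, was the 1 homing list gene of 5 that passed, with 809 CPM (695 to 938) and 544 (457 to 642) against 62.4 and 19.6. Ltb is also transcribed in other marrow cells, and 49.9% of neutrophils in Col1a1fspKO and 41.9% in WT had a UMI of it.

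The genes of early B cells were on the low side, 10 of 11 at least 2-fold lower and 0 higher, against 9.32% of all genes. Igll1, Vpreb1 and Myl4 among these 10 were in the rule, while Ebf1, the other early gene of the rule, was not among the 10. Dntt, the polymerase that adds bases at the junctions, had 0 UMIs in the members of both libraries, and stood at 146 and 97.6 CPM in pro-B and pre-B cells. Il7r, the receptor chain for the growth factor of pro-B and pre-B cells, had 2 UMIs in Col1a1fspKO members and 0 in WT members, against 131 and 117 CPM. Rag2, of the recombinase, had 0 UMIs in either and stood at 45.2 and 47.8 CPM in pro-B and pre-B cells. With 0 UMIs, levels of up to 16.8 CPM in Col1a1fspKO and 14.4 CPM in WT remained possible.

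Genes of the immature stage were lower in 7 of 9 cases and higher in 0, against 9.32% and 2.85% of all genes. Vpreb3, a chaperone of the developing receptor, still stood at 882 CPM (762 to 1015) in Col1a1fspKO members and 579 (490 to 680) in WT members, against 2523 and 2525. Sox4, a factor of early B cells, stood at 59.1 and 90.0 CPM against 422 and 418. Myb stood at 36.4 and 19.6 CPM against 205 and 191. Cd24a, a surface antigen of immature B cells, did not pass, with 1969 and 1773 CPM against 2499 and 2966, and it was found in 98.2% and 98.8% of neutrophils.

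Cell cycle genes were lower in 11 of 16 cases and higher in 0, against 9.32% and 2.85% of all genes. Stmn1, a tubulin regulator of dividing cells, stood at 332 CPM (260 to 417) in Col1a1fspKO and 489 (407 to 583) in WT, against 1838 and 2036 in pro-B and pre-B cells. Hmgb2 stood at 941 and 1722 CPM against 4376 and 5079. The 15 genes with the lowest ratios, ranked by the ratio nearer to 1 of the 2 libraries, held Vpreb1, Igll1, Dntt, Il7r and Tifa beside Gsn, Nrgn and Pde2a. Elane, a neutrophil protease, was also among them, but rested on 1 UMI in the members of each library and changed direction with the choice of cells.

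**Figure D3:**
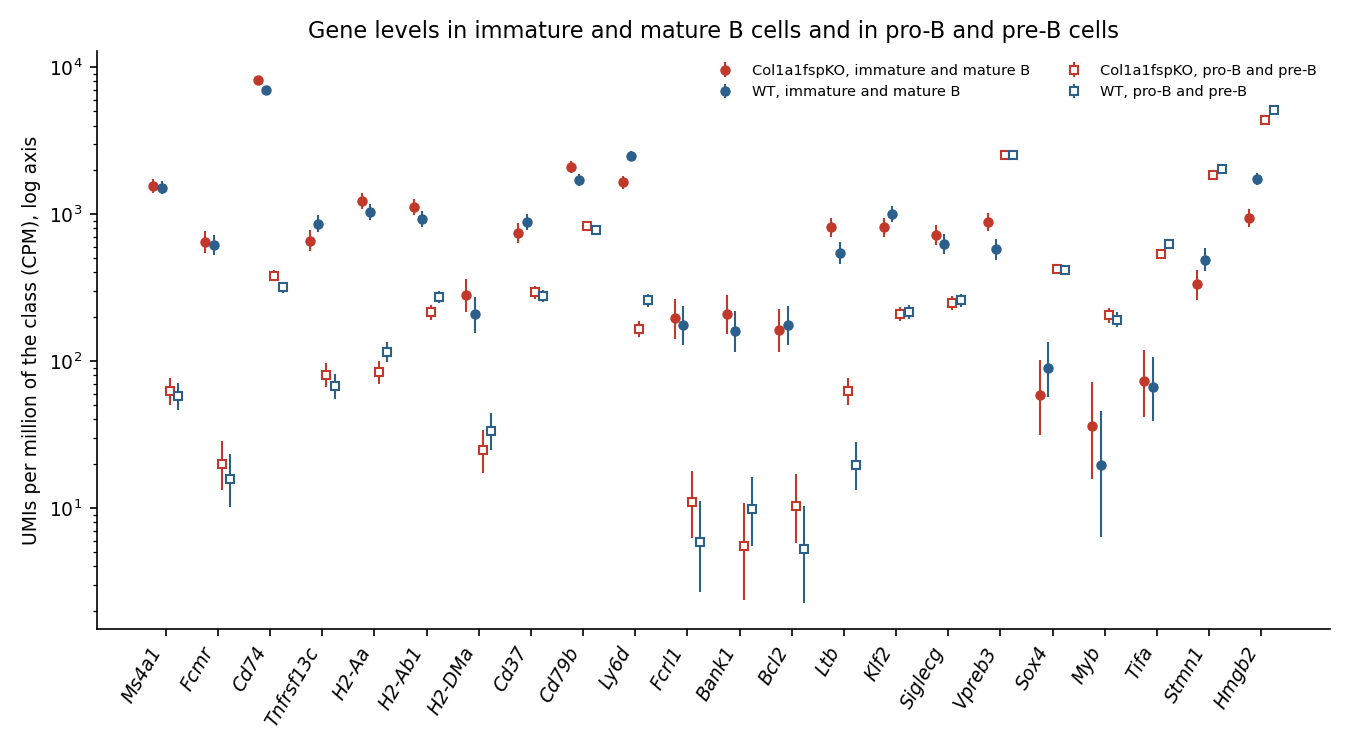
CPM of 22 genes on a log axis in immature and mature B cells (filled circles) and in pro-B and pre-B cells (open squares) of Col1a1fspKO (red) and WT (blue), with exact Poisson 95% intervals. From Ms4a1 to Siglecg the circles of both libraries lie above the squares, and from Vpreb3 to Hmgb2 they lie below.

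Fcer2a, the IgE receptor CD23 of follicular B cells, stood at 114 CPM in Col1a1fspKO members and 117 in WT members, and at 0 and 4.58 CPM in pro-B and pre-B cells. A UMI of it was found in 28.3% of the members in Col1a1fspKO and 34.7% in WT, and in 0.196% and 0% of neutrophils.

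A split by H2-Aa was made after its values had been seen, among the 95 cells under the limit for RNA of other lineages. In Col1a1fspKO, 35 of 51 cells had an H2-Aa UMI, with a median of 7 among them, and 16 had none. In WT, 25 of 44 had one, with a median of 7, and 19 had none. Only 3 Col1a1fspKO and 2 WT cells had exactly 1 UMI, so few cells lay at the edge of the split. Median depths were 3342 UMIs with and 2850.5 without H2-Aa in Col1a1fspKO, and 3682 and 3685 in WT. Cells over 10000 UMIs numbered 2 with and 0 without H2-Aa in Col1a1fspKO, and 2 and 3 in WT. Such cells weigh more in pooled levels.

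H2-Eb1, H2-Ab1, H2-DMa and H2-DMb2 were higher in the cells with H2-Aa. H2-Eb1 and H2-DMb2 were in the rule that chose the members, so the rule itself shapes this contrast. Of 416 genes, 9 were at least 2-fold higher with H2-Aa in both libraries, H2-Aa itself included, and 1 was at least 2-fold lower. H2-Eb1 stood at 1485 CPM with and 42.4 without H2-Aa in Col1a1fspKO, and at 1375 and 10.2 in WT. H2-Ab1 stood at 1601 against 148 CPM, and at 1594 against 123. H2-DMa and H2-DMb2 were 2.95 and 2.75 times higher in Col1a1fspKO, and 2.95 and 3.57 times in WT. The remaining 4 genes were Shisa5, Ltb and the tubulin genes Tuba1b and Tubb5. Cells with over 0.5% of their UMIs from the cell cycle genes numbered 2 with and 0 without H2-Aa in Col1a1fspKO, and 5 and 3 in WT. The lower gene was Aldoa, an aldolase of glycolysis, with ratios of cells with over cells without H2-Aa of 0.459 in Col1a1fspKO and 0.431 in WT.

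The cells without H2-Aa still held Cd74 and Tnfrsf13c, which were not in the rule. Cd74 stood at 7034 CPM in them in Col1a1fspKO and 4381 in WT, against 9821 and 9284 in cells with H2-Aa. Tnfrsf13c stood at 1292 and 962 CPM without and at 558 and 816 with H2-Aa. Vpreb3 stood at 2076 CPM without and 606 with H2-Aa in Col1a1fspKO, but at 757 and 521 in WT. The 95% interval of the ratio with over without was 0.217 to 0.393 in the former library and 0.488 to 0.969 in the latter. The 3 WT cells without H2-Aa over 10000 UMIs held 7, 22 and 17 Cd74 UMIs, and 0, 1 and 8 of Vpreb3. The 2 such WT cells with H2-Aa held 149 and 48, and 7 and 10. These deep cells thus drew the pooled WT levels of both genes down.

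**Figure D4:**
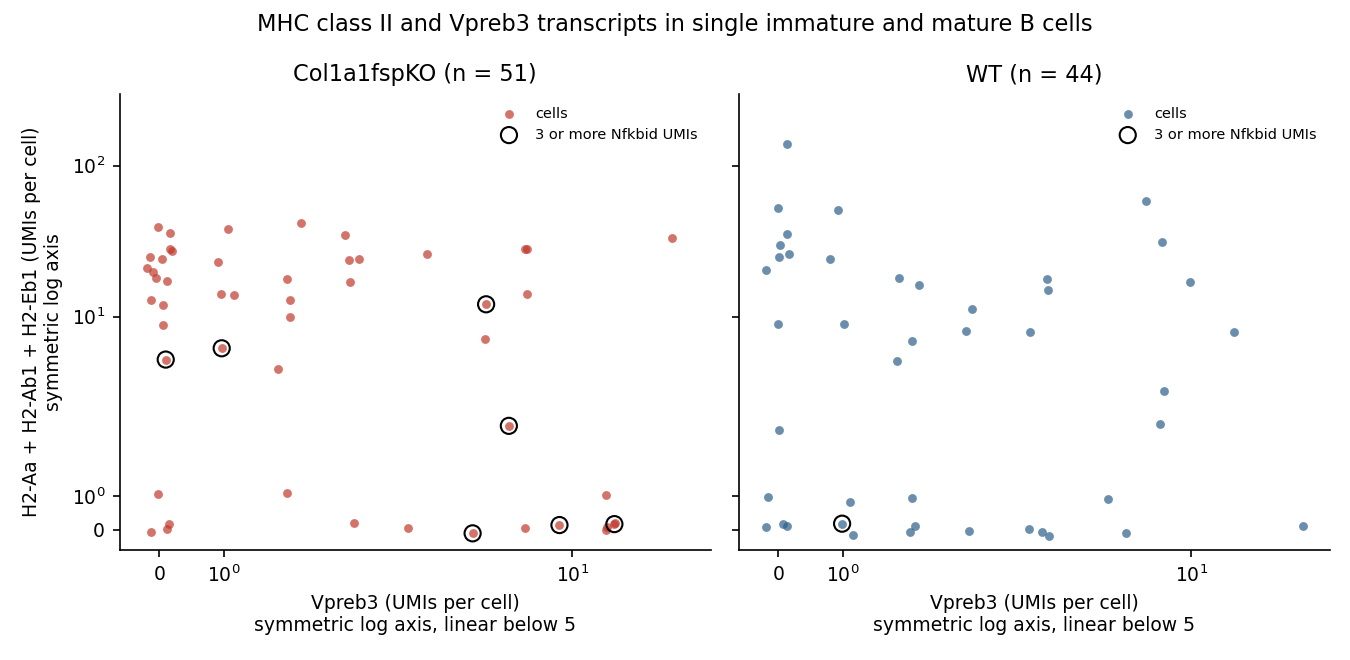
Summed UMIs of H2-Aa, H2-Ab1 and H2-Eb1 against Vpreb3 UMIs in single immature and mature B cells, 51 in Col1a1fspKO and 44 in WT, on symmetric log axes with a small jitter. Circles mark cells with at least 3 Nfkbid UMIs, 7 in Col1a1fspKO and 1 in WT, and both panels hold cells along the lower edge with no or few class II transcripts.

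Signs of other B cell fates were scarce. Jchain, the joining chain of secreted antibody, had 161 UMIs in WT, all in 1 cell with 12988 UMIs, and 0 in Col1a1fspKO. The 14 listed genes of B-1, marginal zone and memory cells summed to 41 UMIs in Col1a1fspKO and 54 in WT. Of 3 interferon-response genes with enough UMIs against pro-B and pre-B cells, 0 passed 2-fold in either direction. For 3 genes a count of 0 is near the 2.85% higher and 9.32% lower over all genes. S100a4, the source of the promoter that drives Cre, had 0 UMIs in Col1a1fspKO members and 3 in WT members. Col1a1 had 0 UMIs in the members of both libraries, so its loss could not be checked in these cells.

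Between the genotypes, most genes of the class lay close together. Of 1176 genes with at least 50 UMIs over the members of both libraries, 17 (1.45%) were at least 2-fold higher in Col1a1fspKO and 45 (3.83%) at least 2-fold lower. The median log2 ratio was -0.11. Scaling by the median of ratios in place of CPM set that median to 0 and left 20 genes higher and 26 lower, so the split of the calls depended on the scaling. Without the 7 cells over the limit, 10 of 1069 genes (0.935%) were higher and 40 (3.74%) lower. Without the members over 10000 UMIs, which were 3 in Col1a1fspKO and 5 in WT, 5 of 828 genes were higher and 27 lower, with fewer genes reaching the count minimum. All ratios between the libraries are descriptions of 2 libraries, with exact binomial 95% intervals of the counts.

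Of 11 defining B cell genes, 11 receptor signalling genes, 5 survival genes and 8 MHC class II genes tested, 0 passed 2-fold in either direction, with and without the 7 cells. For lists of this size a count of 0 is near the 1.45% and 3.83% over all genes. Ms4a1 had a ratio of Col1a1fspKO over WT of 1.03 (0.884 to 1.19), Fcmr of 1.05 (0.832 to 1.33), Cd74 of 1.17 (1.10 to 1.25) and Tnfrsf13c of 0.766 (0.617 to 0.949). The 8 MHC class II genes tested had a median log2 ratio of 0.37, beside -0.11 over all genes. H2-Eb1, which was in the rule, had the ratio 1.36 (1.12 to 1.65) and H2-Aa 1.19 (1.0 to 1.42). In pro-B and pre-B cells the ratios lay on the other side of 1, at 0.810 (0.587 to 1.11) and 0.731 (0.576 to 0.926). Among members with an H2-Aa UMI the ratio of H2-Eb1 was 1.08 (0.883 to 1.32) and that of H2-Aa 0.978 (0.820 to 1.17). H2-Aa was found in 67.9% of the members in Col1a1fspKO and 55.1% in WT, beside 2.54% and 1.88% of neutrophils. With cells thinned to 2500 UMIs, the shares were 64.2% and 55.1%.

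Ly6d, a surface antigen of the B lineage, was lower in Col1a1fspKO but did not pass 2-fold. It stood at 1646 CPM (1481 to 1825) in Col1a1fspKO and 2481 (2292 to 2682) in WT, a ratio of 0.663 (0.581 to 0.756). The ratio was 0.719 without the 7 cells and 0.637 in pro-B and pre-B cells. A member had a median of 6 Ly6d UMIs in Col1a1fspKO and 11 in WT, and the ranges overlapped, from 0 to 24 and from 0 to 70. Vpreb3 had a ratio of 1.52 (1.22 to 1.90) in members and 0.999 in pro-B and pre-B cells. Ltb had ratios of 1.49 (1.19 to 1.87) in members and 3.17 in pro-B and pre-B cells.

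Apobec3, a cytidine deaminase that restricts retroviruses, had the highest ratio of the genes that kept their value without the 7 cells. It had 45 UMIs in 30 of 53 Col1a1fspKO members and 6 UMIs in 4 of 49 WT members. Its level was 205 CPM (149 to 274) in Col1a1fspKO but 23.5 CPM (8.62 to 51.1) in WT. The ratio was 8.71 (3.71 to 25.0), or 8.30 when the 7 cells were left out. A UMI was found in 56.6% and 8.16% of the members, in 45.3% and 2.04% after thinning to 2500 UMIs, and in 5.28% and 1.65% of neutrophils. In pro-B and pre-B cells Apobec3 stood at 184 and 26.9 CPM, a ratio of 6.84. The strain background of the mice was not tested. Apobec3 spans chr15:79891659-79915906 on the plus strand of GRCm38.

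Il4i1 and Nfkbid were also higher in Col1a1fspKO. Il4i1, a secreted amino acid oxidase induced by interleukin 4 in B cells, had 49 UMIs in 18 Col1a1fspKO cells and 17 UMIs in 10 WT cells, a ratio of 3.35 (1.90 to 6.20), and 4.38 without the 7 cells. In pro-B and pre-B cells it was near 0, at 3.43 and 3.27 CPM, and it was found in 0.196% of neutrophils in Col1a1fspKO and 0% in WT. Nfkbid, a nuclear IκB protein, had 78 UMIs in 11 Col1a1fspKO cells and 36 UMIs in 8 WT cells, a ratio of 2.52 (1.68 to 3.85). A single cell held 29.5% of them in Col1a1fspKO and 77.8% in WT. Serpinb1a, an inhibitor of neutrophil proteases, had 42 and 16 UMIs and a ratio of 3.05 (1.68 to 5.81), and 3.39 without the 7 cells. A UMI was found in 35.8% and 18.4% of the members and in 65.9% and 72.2% of neutrophils, where it stood at 324 CPM in both libraries. How much of its level in members came from RNA of other cells was not tested. Of the 12 transcription factors tested, Nfkbid was the 1 past 2-fold, beside 1.45% higher and 3.83% lower over all genes.

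The remaining genes at the top of the ranking belonged to red cells. Hba-a1 had 2007 UMIs in Col1a1fspKO members and 315 in WT members, a ratio of 7.40 (6.57 to 8.36), and 85.6% of the Col1a1fspKO UMIs lay in the 1 cell with 23.1% erythroid UMIs. Without the 7 cells its ratio was 1.22. Car2, the carbonic anhydrase of red cells, went from a ratio of 12.1 to 0.678 and Glrx5 from 2.55 to 0.670. Hba-a2, Hbb-bs and Hbb-bt went from 4.26, 2.69 and 2.60 to 1.20, 1.24 and 0.906. Tmem14c, a haem transport gene, went from 3.49 to 1.99.

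The bottom of the ranking held neutrophil and cell cycle genes. Ngp, Lcn2, S100a8, S100a9 and Camp, all neutrophil genes, had ratios from 0.224 for Ngp to 0.323 for Camp, and from 0.791 for Lcn2 to 1.15 for Camp without the 7 cells. Thus their low ratios were those of the 5 WT cells rich in neutrophil RNA. H2afx, the histone variant of DNA repair, had 36 and 133 UMIs and a ratio of 0.315 (0.211 to 0.457). Without the 7 cells 22 and 127 UMIs were left and the ratio was 0.205. A single cell held 36.1% of its UMIs in Col1a1fspKO and 30.8% in WT. Cks1b, a cofactor of cyclin-dependent kinases, had 21 and 76 UMIs in 6 and 13 cells and a ratio of 0.321 (0.188 to 0.526). A single cell held 38.1% and 21.1% of them. Tubb4b, a β-tubulin, had 25 and 90 UMIs in 7 and 16 cells, with 48% and 32.2% of them in 1 cell, and a ratio of 0.323 (0.198 to 0.507). Smc6, of the complex that resolves DNA joints, had 16 and 62 UMIs, in 20.8% and 59.2% of the members, and a ratio of 0.300 (0.162 to 0.526). In neutrophils it was found in 13.1% and 24.5%, and in pro-B and pre-B cells its ratio was 0.792.

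Of 8 cell cycle genes with enough UMIs, 2 were at least 2-fold lower in Col1a1fspKO (Mki67 and Tubb5) and 0 higher, against 3.83% and 1.45% of all genes. Without the 7 cells 7 were lower, against 3.74% of all genes. This took the list from 613 to 411 UMIs in Col1a1fspKO and from 1288 to 1187 in WT. Among the cells left out were the erythroid-rich Col1a1fspKO cell of 22703 UMIs, with 0.868% of its UMIs from the list, and a WT cell with 0.915%. The list as a whole stood at 2788 CPM in Col1a1fspKO and 5041 in WT. Among the 95 cells, those with over 0.5% of their UMIs from the list numbered 2 with H2-Aa and 0 without it in Col1a1fspKO, and 5 and 3 in WT. Such cells were few in either library. Over all members they numbered 3 in Col1a1fspKO, each with over 10000 UMIs, and 9 in WT, of which 5 had 10000 UMIs or fewer. Without the members over 10000 UMIs the list stood at 657 CPM (542 to 790) in Col1a1fspKO and 2757 (2519 to 3010) in WT.

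Receptors for retention and egress gave few counts. Cxcr4, which holds B cells in the marrow, had 4 UMIs in Col1a1fspKO members and 21 in WT members, or 18.2 CPM (4.96 to 46.6) and 82.2 CPM (50.9 to 126). It fell under the minimum of 50 UMIs, and it was found in 5.66% and 30.6% of the members, beside 28.8% and 37.6% of neutrophils. S1pr1, the egress receptor, had 1 and 8 UMIs, and Cxcr5, the follicle homing receptor, 7 and 8. At this depth the differences in S1pr1 and Cxcr5 were within their counting intervals. That of Cxcr4 rested on few UMIs, and 2 of the 4 in Col1a1fspKO lay in the erythroid-rich cell. Of the 21 in WT, 2 and 3 lay in 2 cells rich in neutrophil RNA.

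**Figure D5:**
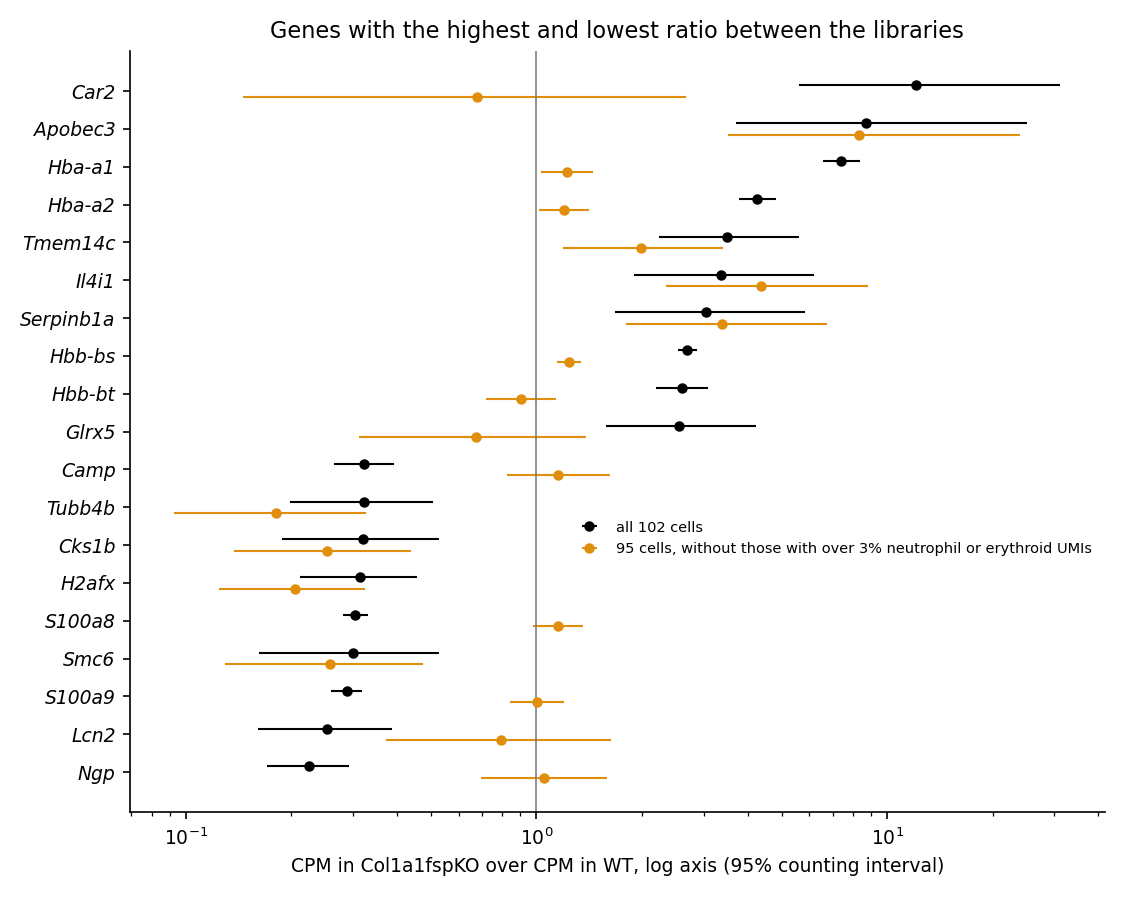
Ratio of CPM in Col1a1fspKO over WT, on a log axis with exact binomial 95% intervals, for the 10 highest and 9 of the 10 lowest genes of the ranking (Jchain, with 0 UMIs in Col1a1fspKO, is left out). Black points use all 102 cells and orange points the 95 cells under the limit for RNA of other lineages. The orange intervals of Apobec3, Il4i1, Serpinb1a, Tmem14c, Smc6, H2afx, Cks1b and Tubb4b stay on their side of 1, while the globin ratios move to between 0.906 and 1.24 and those of the neutrophil genes to between 0.791 and 1.15.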

How the data were processed

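The authors deposited, per library, a table of raw UMI counts per gene and cell from 10x Genomics 3' v2 libraries, and their processing notes name Cell Ranger, Seurat 3.5.3 and the mm10 build. The Cell Ranger version is not given in the sources used here. The study's limits of 200 to 7000 genes and at most 10% mitochondrial UMIs removed no further cell. Cells were chosen by the UMI rule, and their counts were summed per library and scaled to CPM. A library with 0 UMIs was set to 3 UMIs in a ratio, which is then a bound. Intervals are 95% (exact Poisson, exact binomial, Clopper-Pearson, Newcombe) and cover counting error only. On counts simulated for Col1a1fspKO over WT (1186 genes, 200 of them changed), 94.0% of the intervals of changed genes covered the true ratio. The simulated counts held Poisson counting error alone, so this coverage only checks the computation of the intervals. It does not cover real UMIs gathered in single cells, or differences between cells, mice or libraries.

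Genes named are those of fixed lists (B cell, stage, cycle, response and other-lineage genes), the 10 highest and 10 lowest ratios between libraries and the 15 highest and 15 lowest against pro-B and pre-B cells. Y-linked genes, Xist and mitochondrial genes were left out of the ranking. The members and lists were chosen with earlier results of these data known. Python 3.11.15, pandas 2.3.3, scipy 1.17.1 and scanpy 1.11.5 (Scrublet) were used. Gene positions came from GENCODE on GRCm38. 14 planned and 2 added alternatives were run. A split of the members by maturity and some genes are not reported here.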

Additional observations from a re-analysis of the deposited data

Results flagged for a closer look

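7 genes had opposite ratios of members over pro-B and pre-B cells in the libraries, at least 2-fold in each, and in no case was the difference between the libraries tested. Car2 had ratios of 2.65 in Col1a1fspKO and 0.124 in WT, Hba-a1 of 7 and 0.225, Hba-a2 of 4.18 and 0.289, and Hbb-bt of 3.20 and 0.50. Without cells over the limit of 3% neutrophil or erythroid UMIs in either class, the ratios of these genes were no longer opposite, at 0.151 and 0.193 for Car2, 1.13 and 1.08 for Hba-a1, 1.15 and 1.11 for Hba-a2, and 1.13 and 1.37 for Hbb-bt. In the members of Col1a1fspKO, 94.5% of the Car2 UMIs and 85.6% of the Hba-a1 UMIs lay in 1 cell. F630028O10Rik, a gene with no agreed function, had ratios of 0.121 and 2.49, Lst1, a leukocyte transcript, of 0.381 and 3.80, and Stxbp2, a gene of granule release, of 0.369 and 2.56. Their UMIs in members were few, 1 in Col1a1fspKO and 15 in WT for F630028O10Rik, 5 and 21 for Lst1, and 4 and 24 for Stxbp2. Without cells over the limit their ratios were 1.11 and 1.98, 0.805 and 4.19, and 0.429 and 2.28, so that of these only Stxbp2 kept 2-fold opposite ratios.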

How the results depend on the processing

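The share, level and count results were recomputed under 14 planned settings and 2 chosen after seeing the data, and 105 of 133 values moved by no more than their error or 1.5 times. The summed level of the 4 markers, 11014 CPM in Col1a1fspKO and 9937 in WT, became 10043 and 8829 with a Cd79a limit of 2, 14302 and 12400 with cells thinned to 2500 UMIs, 13256 and 11783 without the 20 most abundant genes, and 13413 and 11785 as a mean over single cells. In Col1a1fspKO alone it was 11633 with Ms4a1 and Fcmr as the only mature genes, 9687 with the shared UMI minimum and 12344 without cells over the limit for other lineages. The Col1a1fspKO share was 2.86% with the shared UMI minimum, and 16.7% of B lineage cells with Ms4a1 and Fcmr only. Genes higher and lower in Col1a1fspKO, 17 and 45 of 1176 tested, became 1 and 11 of 467 with thinned cells, 73 and 229 of 2882 from 20 UMIs, 8 and 24 of 552 from 100 UMIs, and 5 and 27 of 828 without members over 10000 UMIs, so the number of genes tested changed too. They were 10 higher of 1069 without cells over the limit, and 26 lower with median-of-ratios scaling, which moved the median of all genes by 0.11. The higher share of these calls, 27.4%, was 43.5% with that scaling, 8.33% with thinned cells and 15.6% without members over 10000 UMIs. Genes higher and lower against pro-B and pre-B cells, 104 and 340 of 3647, became 25 and 130 of 1017 with thinned cells and 53 and 221 of 2095 from 100 UMIs, with 225 higher of 6063 from 20 UMIs.

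Among named genes, 1253 values stayed within their error, 163 moved and 22 changed sign from a main ratio that was at least 2-fold. Sign changes of smaller ratios were not counted apart. The log2 ratio of Ms4a1 between the libraries, for example, ran from -0.235 to 0.168 over the settings. Among the 22, the log2 ratios of Col1a1fspKO over WT were, with a Cd79a limit of 2, Camp 1.14, Lcn2 0.15, Ngp 1.15, S100a8 0.32 and S100a9 0.0893. Without cells over the limit they were Camp 0.21, Car2 -0.56, Glrx5 -0.58, Hbb-bt -0.14, Ngp 0.0726, S100a8 0.20 and S100a9 0.0068. With thinned cells they were Car2 -1.24, Glrx5 -0.76 and Hbb-bt -0.00292, without members over 10000 UMIs Car2 -0.74, Glrx5 -0.93 and Hbb-bt -0.20, and as a mean over single cells Glrx5 -0.0211. Elane against pro-B and pre-B cells turned to 2.60 with a Cd79a limit of 2 and 1.15 without cells over the limit in Col1a1fspKO, and to 3.16 with thinned cells in WT. The cause was not tested beyond the cells each setting leaves out. A split of the members by Ighd could not be run, since the tables hold no row for it. No paired analysis was possible because each genotype had 1 library. Depth limits single genes: with 219897 UMIs in the class, a gene at 0 UMIs could still stand at 16.8 CPM in Col1a1fspKO.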
